A study of Homo sapiens with 8 samples.

Results

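Amino acids cross the plasma membrane through solute carriers, and the RNA footprints of 9 of these carriers and partners are described here in OVCAR3 cells. The set is SLC7A5 (LAT1), its heavy chain SLC3A2 (CD98), and SLC7A11, SLC1A5, SLC38A2, SLC38A1, SLC7A1, SLC1A4 and SLC43A1. These are 9 of the 20165 merged gene regions in the count files, found by matching the transcripts of each region to gene symbols, and every one matched 1 region. The members were chosen by their relation to SLC7A5, a gene selected on its coding counts in both comparisons, so the values that chose the set are those coding counts. The fold changes below therefore describe the members, and no p-value is attached to them.

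SLC7A5 carries large neutral amino acids such as leucine and phenylalanine into the cell in exchange for internal amino acids, glutamine among them, and reaches the plasma membrane only when bound to the glycoprotein SLC3A2. SLC7A11 uses the same heavy chain to import cystine in exchange for glutamate, and so feeds glutathione synthesis. SLC1A5 and the sodium-coupled carriers SLC38A1 and SLC38A2 bring in glutamine and other small neutral amino acids, and leucine that enters through SLC7A5 is one of the signals that activate the growth kinase complex mTORC1. Many tumours carry high levels of these proteins.

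Ribosome profiling (Ribo-seq) sequences the mRNA fragments that ribosomes protect from nuclease, so the footprint count of a coding sequence depends on the amount of its mRNA and on how densely it is translated. OVCAR3 is an established human ovarian cancer line, and 4 groups of 2 libraries were made from it. In the RACK1 experiment, cells were infected with lentiviruses that express, under doxycycline, an shRNA against the endogenous RACK1 and an HA-tagged RACK1. The tagged protein was wild type (RACK1-WT) or had its mono(ADP-ribosyl)ation (MARylation) sites mutated (RACK1-Mut), and both groups received 1 µg/ml doxycycline, so both carried the knockdown. In the siRNA experiment, OVCAR3 cells were transfected with 30 nM control siRNA (siControl) or siRNA against OARD1 (siTARG1). OARD1 encodes TARG1, a hydrolase that takes ADP-ribose off proteins. Harvest followed 48 h after doxycycline or transfection in both experiments. The methods describe the samples of the sequencing experiments as biologically independent, while the labels only number the replicates, and p-values measure the spread between these libraries. In a bulk lysate, fewer cells expressing a gene and less RNA per cell cannot be told apart, and without RNA-seq analysed here, mRNA amount and translation cannot be told apart either.

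Coding counts summed to between 3100947 and 6604190 per library, and exon counts made up 27.8% to 57.2% of the alignments. OARD1 had 121.3 and 69.1 normalized counts in siControl and 5.83 and 6.75 in siTARG1. RACK1 counts, which hold both the endogenous and the re-expressed mRNA, were 25.4% lower in RACK1-Mut than in RACK1-WT. All 10 markers of ovarian carcinoma epithelium that matched a region were present in every library. Their summed level was 7740 to 8153 in the RACK1 experiment, 6836 and 6715 in siControl, and 4477 and 4878 in siTARG1 (footprints per kb of coding sequence and per 1000000 coding counts, called the level below). The fibroblast markers summed to 6.35 to 9.80, the leukocyte markers to 1.26 to 7.38 and the endothelial markers to 0.0753 to 0.338, with CD3E, LYZ and CDH5 at 0 in all 8 libraries. In siTARG1 the 10 epithelial markers went both ways, with 2 called higher, 4 called lower and a median log2 fold change of -0.14, so the lower sum does not describe each marker. The part of these shifts in the siRNA results was not tested.

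The start codon is where a ribosome begins on each of these mRNAs, and 21 bases around it are shown for the 5 members with the most footprints, since the share of footprints before this point is compared further on. The sequences were read from GENCODE transcripts lifted to GRCh37, run 5′ to 3′ on the mRNA strand, and carry the start codon in capitals.
SLC7A5, chr16:87903020-87903040, minus strand: ggtgcgcagagcATGgcgggt
SLC3A2, chr11:62623730-62623750, plus strand: ggatccgcctccATGgagcta
SLC1A5, chr19:47291214-47291234, minus strand: gtgcttcccatcATGgtggcc
SLC38A2, chr12:46765068-46765088, minus strand: ccagtgcttagcATGaagaag
SLC38A1, chr12:46633575-46633595, minus strand: cactttctaatcATGatgcat
A purine 3 bases before the start codon, the position that matters most for start site recognition, was found in 8 of the 9 members. SLC3A2 was the exception in the transcript used, and transcripts with another start codon were not examined. Over 12150 genes with a transcript, the share was 85.3%. The base right after the start codon was a G in 7 of the 9 members, all but SLC38A1 and SLC38A2, against 53.2% of those genes.

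Some 5′ UTRs also hold ATG codons ahead of the main one, at which ribosomes can begin. Such an upstream ATG was present in 4 of the 9 members, against 41.2% of the 12150 genes. SLC38A1 held 7, SLC7A11 held 2, and SLC38A2 and SLC7A1 held 1 each. Every one of these upstream reading frames closed before the main start codon. The upstream ATG of SLC38A2, and the nearest and the longest upstream frame of SLC38A1, are shown with the ATG in capitals, since these genes carried many footprints ahead of their coding sequence.
SLC38A2, ATG at chr12:46766353-46766355, minus strand: ttgttttttATGatttgtatt
SLC38A1 nearest, ATG at chr12:46637055-46637057, minus strand: actatatctATGtgcatagaa
SLC38A1 longest, ATG at chr12:46662586-46662588, minus strand: gagattctgATGcaatcggcc
The SLC38A2 frame lies 150 bases before the start codon and is 4 codons long. The SLC38A1 frames lie 168 and 488 bases before it and are 14 and 62 codons long. SLC1A5, whose 5′ UTR is 629 bases long, held no upstream ATG in this transcript.

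Set side by side per length of coding sequence, the 9 members spread over a wide range, and the 5 highest are given first. SLC38A2 had the highest mean level over the 8 libraries, 478, with a range of 433.5 to 545.6. SLC1A5 followed at 365 (343.1 to 390.4), the narrowest range of the 9 with the highest library 1.14 times the lowest. SLC38A1 stood at 306.6 (206.5 to 402.6) and SLC3A2 at 296.2 (208.9 to 356.0). SLC7A5 was at 197.1 and varied the most among these 5, with its highest library 2.36 times its lowest (117.7 to 278.0).

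Below them came SLC7A1, the carrier of arginine and lysine, at 64.6 (50.8 to 90.5). SLC7A11 reached 19.9 (16.7 to 23.0) and SLC1A4, an exchanger of serine, alanine and other small neutral amino acids, 15.2 (11.3 to 16.7). SLC43A1, a carrier of large neutral amino acids that needs no heavy chain, was near the floor at 2.44 (0.192 to 4.35). For comparison, the median level of 12955 genes with at least 10 counts was 16.2.

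Not every step of that order held in every library. SLC38A1 was above SLC3A2 in 5 of 8 libraries, and their order turned with the group. SLC38A1 was the higher in both libraries of siTARG1 and of RACK1-Mut, and SLC3A2 in both of siControl. In RACK1-WT the 2 genes overlapped. SLC1A5 was above SLC38A1 in 7 of 8, and SLC7A11 above SLC1A4 in 7 of 8. The other 5 steps held in 8 of 8 libraries. SLC3A2 was above SLC7A5 in every library.

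**Figure D1:**
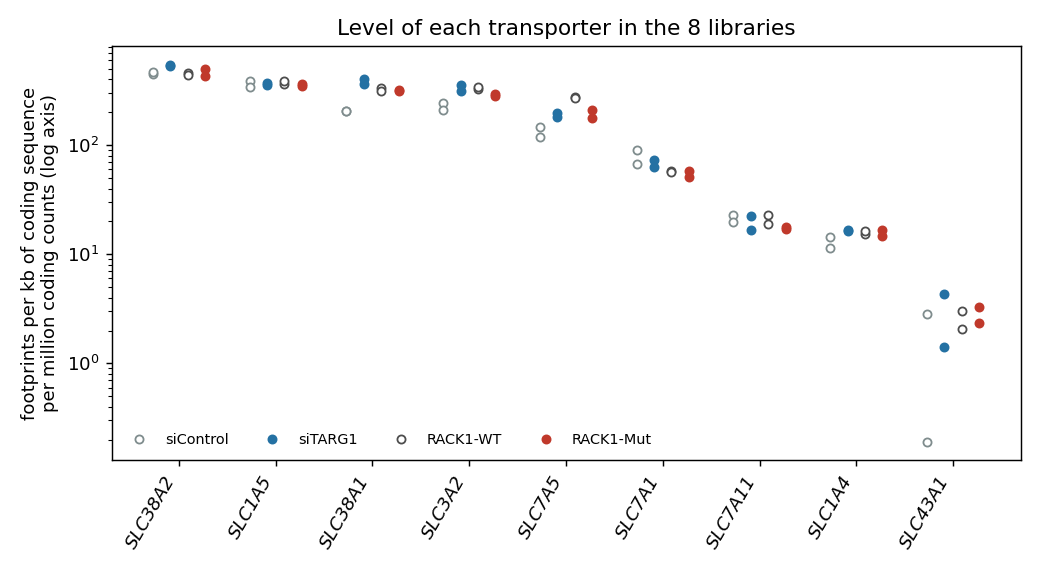
Level of each of the 9 transporters in the 8 libraries, as footprints per kb of coding sequence and per 1000000 coding counts on a log axis, with 1 point per library. SLC38A2 is highest at 433.5 to 545.6, SLC43A1 is lowest at 0.192 to 4.35, and the ranges of SLC38A1 and SLC3A2 over the 8 libraries overlap.

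The first comparison set RACK1-Mut, with its MARylation sites mutated, beside RACK1-WT. RACK1 itself was called lower in RACK1-Mut, with a log2 fold change of -0.42 (DESeq2 adjusted p = 1.34e-08). The mutated sites and the lower RACK1 footprints cannot be told apart here. Among the 9 members, SLC7A5 was the one past the threshold in RACK1-Mut, and it was lower. Over all genes, DESeq2 called 10 of 12520 genes (0.0799%) at an adjusted p under 0.05, all of them lower in RACK1-Mut. edgeR also placed SLC7A5 alone of the 9 past its threshold, among 0.24% of all genes, and among genes with a mean of at least 500 normalized counts DESeq2 called 1 of 6 members and 0.362% of all 2207. The SLC7A5 count is part of what chose the set, and nothing is read from it against these backgrounds. The members' fold changes ran from -0.54 to 0.14 on the log2 scale, with a median of -0.08 against -0.00 over all genes tested, and 7 of the 9 were below 0.

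SLC7A5 had 2163 and 2084 normalized counts in the RACK1-WT libraries and 1343 and 1589 in the RACK1-Mut libraries. Both RACK1-Mut libraries lay below both RACK1-WT libraries, and the log2 fold change was -0.54 ± 0.09 (SE, n = 2 against 2), a level 31.0% lower. Leaving out a library moved the value between -0.66, when RACK1-Mut replicate 2 was dropped, and -0.42, when RACK1-Mut replicate 1 was dropped. Of the 1497 stretches of 28 bases in the SLC7A5 coding sequence, 298 (19.9%) also occur in transcripts of other genes, among them the pseudogenes SLC7A5P1 and SLC7A5P2. Reads from these stretches may be shared between the copies, so the SLC7A5 counts are uncertain to that extent. The other 8 members shared none of their stretches.

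SLC3A2, the heavy chain, had 2827 and 2968 normalized counts in RACK1-WT and 2393 and 2509 in RACK1-Mut. The groups did not overlap, but the difference of -0.24 ± 0.08 (SE) did not pass the threshold. Within a library, the level of SLC7A5 per SLC3A2 was 0.857 and 0.786 in RACK1-WT and 0.629 and 0.709 in RACK1-Mut. The light chain was thus lower relative to its heavy chain in both RACK1-Mut libraries. SLC7A11, the other light chain in the set, had 175.5 and 144.6 normalized counts in RACK1-WT and 127.6 and 134.5 in RACK1-Mut, a log2 fold change of -0.29 ± 0.22 that did not pass.

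The glutamine carriers lay closer together. SLC1A5 had 3024 and 3174 normalized counts in RACK1-WT and 2812 and 2931 in RACK1-Mut, groups that did not overlap, with a log2 fold change of -0.11 ± 0.08. SLC38A2 had 3550 and 3397 against 3753 and 3302, and the RACK1-Mut libraries stood on either side of RACK1-WT. SLC38A1 had 2477 and 2301 against 2320 and 2278, and the groups overlapped. The 95% intervals of their log2 fold changes were -0.14 to 0.18 for SLC38A2 and -0.21 to 0.10 for SLC38A1.

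Of the remaining members, SLC7A1 had 556.5 and 539.3 normalized counts in RACK1-WT and 551.1 and 481.2 in RACK1-Mut. SLC1A4 had 124.4 and 130.7 against 132.4 and 117.3, and SLC43A1 had 17.8 and 25.3 against 27.4 and 19.8. All 3 overlapped between the groups, and at these low counts the interval of SLC43A1 (-0.91 to 1.18) takes in a change as large as that of SLC7A5, and the interval of SLC1A4 (-0.48 to 0.42) nearly does. In all, 4 of the 9 members had groups without overlap, all lower in RACK1-Mut, against 37.6% of all genes tested, a share close to the background.

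**Figure D2:**
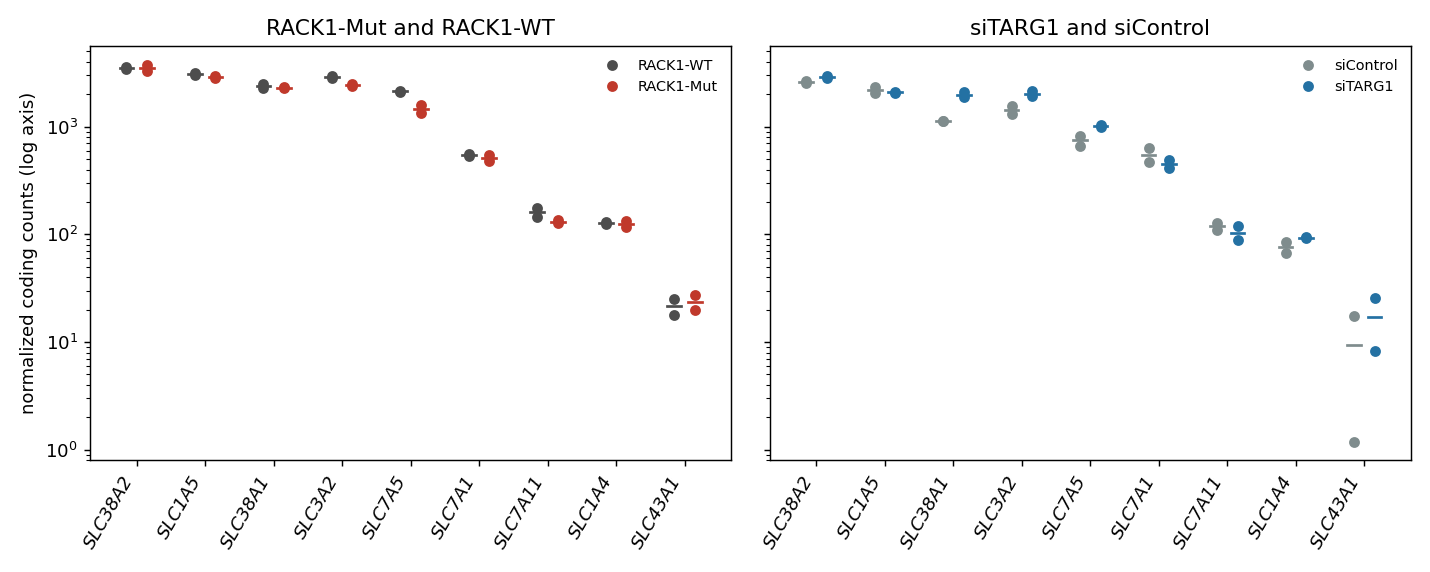
Normalized coding counts of the 9 transporters on a log axis, with 1 point per library and a bar at the group mean. In the RACK1 panel the SLC7A5 points of RACK1-Mut (1343 and 1589) lie below those of RACK1-WT (2163 and 2084), and in the siRNA panel the SLC38A1 points of siTARG1 (1872 and 2085) lie above those of siControl.

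The second comparison set siTARG1 beside siControl. Which OARD1 siRNA was used, or whether a pool was, is not stated. Loss of TARG1 and other effects of the siRNA cannot be told apart. SLC7A5, SLC3A2 and SLC38A1 were past the threshold in siTARG1, and all 3 were higher. Over all genes, DESeq2 called 1974 of 12056 genes (16.4%), with 866 higher (7.18%) and 1108 lower (9.19%), and edgeR called 28.8% of all genes and 4 members. Calls depended on abundance, since 35.7% of 1562 genes with a mean of at least 500 normalized counts were called, and 6 of the 9 members are that abundant, the 3 called ones among them. The members' median log2 fold change was 0.30, the value of the scarce SLC1A4, against 0.00 over all genes. Of the 9, 6 were above 0, which counts SLC43A1 with its 20 and 1 raw counts in siControl. TGAATATA, whole or without an end base, occurred in the 3′ UTR of 46.6% of genes called higher and 22.9% called lower. The share over all 11703 genes with a transcript was 23.8%. For TGAACATA the shares were 13.0% and 34.9%, against 17.7% of all these genes. Among all 2914 genes with a 3′ UTR of at least 2500 bases, called or not, 54.7% held TGAATATA and 42.35% held TGAACATA. SLC38A1, SLC38A2 and SLC7A11 held the first, and SLC7A11 and SLC7A1 the second. Neither sequence is tied to a known siRNA here, and their part in the calls was not tested.

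SLC38A1, the sodium-coupled glutamine carrier, had the largest change of the abundant members. Its normalized counts were 1118 in each siControl library and 1872 and 2085 in siTARG1. Both siTARG1 libraries lay well above siControl, at 1.77 times the level, with a log2 fold change of 0.82 ± 0.09 (SE, n = 2 against 2) and a range of 0.75 to 0.90 when a library was left out. SLC38A2, its paralog, had 2546 and 2632 in siControl and 2818 and 2935 in siTARG1. The groups did not overlap, but the log2 fold change of 0.15 ± 0.07 did not pass. The level of SLC38A1 per SLC38A2 within a library was 0.456 and 0.441 in siControl and 0.690 and 0.738 in siTARG1, while the RACK1 libraries held 0.642 to 0.725. The siControl libraries were thus the low ones among the 8.

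SLC3A2 had 1540 and 1318 normalized counts in siControl and 2128 and 1913 in siTARG1. Both siTARG1 libraries were higher, by 0.50 ± 0.10 on the log2 scale, or 41.3%. The SLC3A2 value was 0.39 without siControl replicate 2 and 0.61 without siControl replicate 1. SLC7A5 had 825.3 and 662.8 against 1042 and 986.2. Again the groups did not overlap, and the log2 fold change was 0.44 ± 0.12, or 1.36 times the level. Its value rested on which control was used, being 0.29 without siControl replicate 2 and 0.61 without siControl replicate 1. The level of SLC7A5 per SLC3A2 was 0.600 and 0.563 in siControl and 0.548 and 0.578 in siTARG1, so the groups overlapped and the light and heavy chains were higher together. SLC7A11 had 128.3 and 110.9 in siControl and 119.0 and 88.8 in siTARG1, which overlapped.

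SLC1A5, the second abundant glutamine carrier, had 2348 and 2062 normalized counts in siControl and 2119 and 2047 in siTARG1. The groups overlapped, and the 95% interval of the log2 fold change was -0.25 to 0.09. SLC7A1 had 632.8 and 466.1 against 417.0 and 486.9. Its log2 fold change of -0.29 ± 0.16 passed the threshold under edgeR's quasi-likelihood test (-0.31) but not under DESeq2, and was -0.05 without siControl replicate 1.

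Among the scarce members, SLC1A4 had 66.8 and 84.6 normalized counts in siControl and 91.6 and 94.5 in siTARG1, a log2 fold change of 0.30 ± 0.31. SLC43A1 had 20 and 1 raw coding counts in siControl and 10 and 23 in siTARG1, and no fold change is given at this depth. In all, 5 of the 9 members had groups without overlap, all higher in siTARG1, against 62.6% of all genes tested, which is no more than the background.

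**Figure D3:**
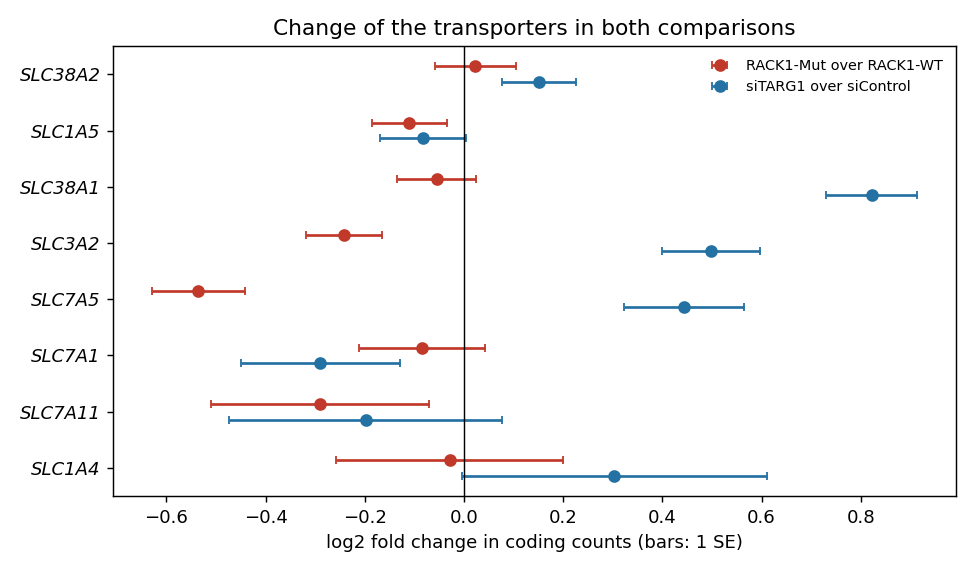
Log2 fold change of coding counts for 8 of the transporters in both comparisons, with bars of 1 SE from DESeq2, leaving out SLC43A1 for its low counts. SLC7A5 lies at -0.54 in RACK1-Mut and at 0.44 in siTARG1, SLC3A2 at -0.24 and 0.50, and SLC38A1 at -0.06 and 0.82.

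The groups of the 2 comparisons share no library. For SLC7A5, the order of the 4 groups by level was RACK1-WT (274.5 ± 4.94, SD, n = 2), then RACK1-Mut (192.6 ± 22.0) and siTARG1 (189.1 ± 8.68), whose ranges overlapped, and then siControl (132.0 ± 20.4). SLC3A2 had like levels in siTARG1 (336.4 ± 27.7) and RACK1-WT (334.6 ± 14.2), followed by RACK1-Mut (287.5 ± 8.47) and siControl (226.4 ± 24.7). SLC38A1 was highest in siTARG1 (383.9 ± 26.6), lower in RACK1-WT (321.5 ± 14.1) and RACK1-Mut (314.5 ± 5.32), which overlapped by spread, and lowest in siControl (206.5 ± 0.10). For all 3, siControl was the lowest of the groups. The RACK1-WT level was 2.08 times that of siControl for SLC7A5, 1.48 times for SLC3A2 and 1.56 times for SLC38A1, but 1.02 times for SLC1A5 and 0.977 times for SLC38A2. The RACK1 and siRNA cells differ in OVCAR3 derivative, treatment and experiment, and these cannot be told apart.

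Footprints ahead of the coding sequence did not choose the members. Their share is not free of that choice, since the coding counts are part of its denominator. The 5′ UTR share is the count in the 5′ UTR as a percentage of all counts in the 5′ UTR, coding sequence and 3′ UTR of a gene. Its median over 6066 genes with at least 1000 coding counts was 1.22%, and 16.9% of them held a share of 5% or more. SLC7A5 and SLC3A2 were below the glutamine carriers in every library. SLC38A1 held 1918 such footprints over the 8 libraries, with a median share of 10.6% (9.77% to 12.9%). SLC1A5 held 1391, with a median of 6.17% (4.97% to 7.48%), and SLC38A2 held 1211, with a median of 4.60% (3.16% to 5.96%).

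In contrast, SLC7A5 held 59 footprints before its start codon, with shares of 0% to 0.894%, and SLC3A2 held 50, with shares of 0.0588% to 0.629%. A library with 0 of these footprints allows up to 3 counts. The 5′ UTRs in the files differ in length, being 66 bases for SLC7A5 and 126 for SLC3A2 but 925 for SLC38A1. Per base, the 5′ UTR density was 0.190 of the coding density in SLC38A1, 0.170 in SLC1A5, 0.162 in SLC38A2, 0.121 in SLC7A5 and 0.0370 in SLC3A2. These densities pool the 8 libraries. The order of SLC7A5 and SLC3A2 turned in siControl, where SLC7A5 held 1 and 0 such footprints and SLC3A2 3 and 7. Each density holds for the 5′ UTR and coding sequence counted, and starts at other ATG codons were not examined. SLC7A11, the light chain for cystine, held 24 5′ UTR footprints, with a median share of 2.43% (0% to 4.67%) that overlapped that of SLC38A2. SLC7A1 held 94, SLC1A4 23 and SLC43A1 6.

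SLC1A5, SLC38A2 and SLC38A1 were the members with at least 20 of these footprints in every library, so their shares were compared between groups. The SLC1A5 share was 5.88% and 7.48% in siControl and 4.97% and 5.50% in siTARG1. That of SLC38A2 was 5.96% and 5.10% in siControl and 4.02% and 3.72% in siTARG1. In both genes the siTARG1 libraries lay below the siControl libraries, by 1.45 and 1.66 percentage points. The 2-sided exact permutation test gave p = 0.33 for each, the smallest value that 2 libraries against 2 can give, so the design cannot reach 0.05. The SLC38A1 share was 12.9% and 10.1% in siControl and 10.8% and 10.7% in siTARG1 and overlapped (exact permutation p = 1).

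In the RACK1 experiment, the SLC1A5 share was 6.46% and 5.77% in RACK1-WT and 7.16% and 6.51% in RACK1-Mut, a difference of 0.73 points between groups that did not overlap (exact permutation p = 0.33). The SLC38A2 share was 3.16% and 5.21% in RACK1-WT and 4.11% and 5.68% in RACK1-Mut. The SLC38A1 share was 9.77% and 10.5% against 10.1% and 11.3%. Both overlapped, with an exact permutation p of 0.67 each. These 6 comparisons of shares form 1 family, and none can pass a correction.

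**Figure D4:**
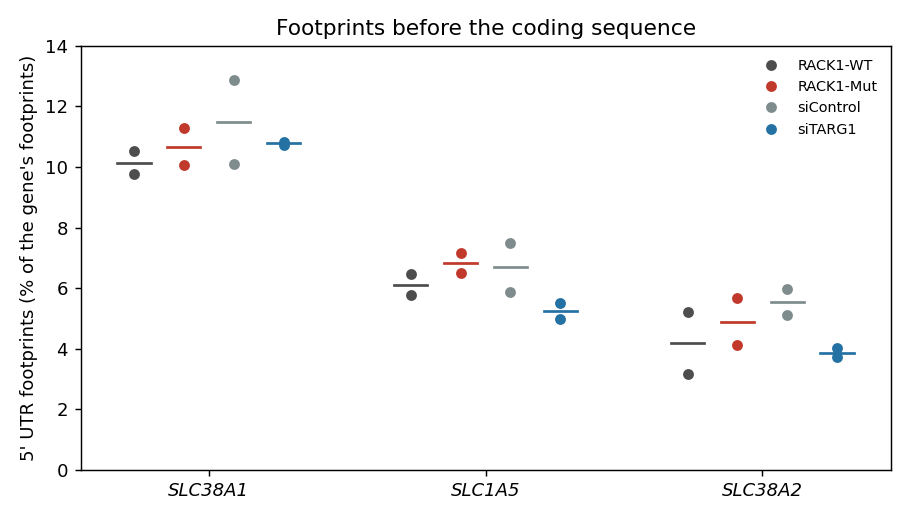
Share of a gene's footprints that lie in its 5′ UTR, in percent, for the 3 members with at least 20 such footprints in every library, with 1 point per library and a bar at the group mean. SLC38A1 lies at 9.77% to 12.9%, and the siTARG1 points of SLC1A5 and SLC38A2 lie below those of siControl.

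Other genes of amino acid handling were counted from 7 lists. In the RACK1 comparison DESeq2 called none of the genes tested in any list, which were 25 other transporters of the plasma membrane and lysosome, 9 mitochondrial carriers, 37 sensing genes upstream of mTORC1, 17 response kinases and transcription factors, 20 synthesis enzymes, 9 glutathione genes and 8 partner proteins. At an unadjusted p under 0.05, which 1.64% of all genes reached, there were 1 response gene and 4 synthesis enzymes, and none in the other lists. Under edgeR 1 response gene and 1 synthesis enzyme were called, and none in the other lists. The list medians ran from -0.13 for the synthesis enzymes to 0.01 for the response genes. The genes with an unadjusted p under 0.05, named after their values were seen, were ATF4, the transcription factor of the amino acid response (-0.39), and the serine synthesis and folate enzymes PSAT1 (-0.35), SHMT2 (-0.28) and PHGDH (-0.19), with the transaminase GOT1 (-0.23).

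In the siRNA comparison, 26 other transporters were tested, and 3 rose and 3 fell, 23.1% against 16.4% of all genes. Their median log2 fold change was 0.29, and it was 0.09 without siTARG1 replicate 2 and 0.16 without siControl replicate 2. SLC6A15, a sodium-coupled carrier of branched-chain amino acids and proline, had 87.0 and 79.9 normalized counts in siControl and 281.3 and 273.3 in siTARG1, a rise of 1.73 on the log2 scale (DESeq2 adjusted p = 5.34e-13). SLC7A2, the second cationic carrier, had 74.7 and 59.6 against 147.3 and 121.5 and rose by 1.00 (DESeq2 adjusted p = 0.00582). SLC36A1, which exports small amino acids from the lysosome, had 79.1 and 93.0 against 30.8 and 35.99 and fell by 1.37 (DESeq2 adjusted p = 0.00264). The other 3 were scarce and were named after their values were seen. SLC16A10, a carrier of aromatic amino acids, had 81 and 41 raw counts in siControl and 3 and 3 in siTARG1. SLC38A8 had 21 and 22 against 0 and 2, and SLC7A10, another light chain of SLC3A2, had 4 and 0 against 26 and 36.

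Among 9 mitochondrial carriers, 1 rose and 2 fell. The aspartate and glutamate exchangers moved apart. SLC25A12 had 166.1 and 180.0 normalized counts in siControl and 276.3 and 323.9 in siTARG1 (log2 fold change 0.79, DESeq2 adjusted p = 0.000546), and SLC25A13 had 486.9 and 579.3 against 287.2 and 332.9 (-0.78, DESeq2 adjusted p = 1.15e-05). SFXN2, a sideroflexin, fell by 0.76 (DESeq2 adjusted p = 0.0170).

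Of 37 sensing genes, 4 rose and 1 fell (13.5%), with a median log2 fold change of 0.02, and of 0.09 without siControl replicate 2. SESN2, the sestrin that senses leucine, had 80.9 and 79.9 normalized counts in siControl and 228.1 and 154.1 in siTARG1, a rise of 1.26 (DESeq2 adjusted p = 6.01e-05). RHEB, the small GTPase that activates mTORC1, rose by 0.74 (DESeq2 adjusted p = 3.04e-05). The region that joins FNIP1 with the gene RAPGEF6 rose by 0.86, and its counts cannot be assigned to either gene. SEH1L, a subunit of the GATOR2 complex, rose by 0.50 (DESeq2 adjusted p = 0.00327). The gene that fell, LAMTOR2 of the lysosomal Ragulator complex (-0.43), was the smallest of the 5 changes and was named after its value was seen.

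Of 17 response genes, 3 rose and 1 fell, with a median log2 fold change of 0.42 that was 0.17 with exon counts and 0.23 to 0.29 with a library left out. EIF2AK4, the kinase GCN2 that senses uncharged tRNA, had 94.9 and 94.2 normalized counts in siControl and 176.5 and 184.4 in siTARG1, a rise of 0.93 (DESeq2 adjusted p = 0.00148). ATF4 had 379.7 and 333.8 against 514.4 and 500.4, a rise of 0.51 (DESeq2 adjusted p = 0.00494). CEBPB rose by 0.42, and NFE2L2, the transcription factor of the antioxidant response, fell by 0.37.

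Of 20 synthesis enzymes, 6 fell and 1 rose (35.0%), with a median log2 fold change of -0.08 that was -0.16 without siControl replicate 2 and -0.0026 without siControl replicate 1. PSAT1, the transaminase of serine synthesis, fell the furthest, from 1050 and 876.1 normalized counts to 342.9 and 362.1 (-1.46, DESeq2 adjusted p = 1.49e-25). The mitochondrial transaminase GOT2 fell by 0.57, glutamine synthetase GLUL fell by 0.54 and the cytosolic transaminase GOT1 fell by 0.41. Asparagine synthetase ASNS (-0.28) and argininosuccinate synthase ASS1 (-0.26) were also lower, and the folate enzyme MTHFD2 was higher (0.41). These last 3 were named after their values were seen. All 7 passed at a DESeq2 adjusted p of 0.0363 or lower.

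Of 9 glutathione genes, GSR, which regenerates reduced glutathione, rose by 0.66 (DESeq2 adjusted p = 2.55e-06) and the thioredoxin reductase TXNRD1 fell by 0.54 (DESeq2 adjusted p = 4.12e-05). Of 8 partner proteins, 1 rose and 3 fell. CD44, known as a partner of the SLC7A11 protein, had 269.8 and 327.8 normalized counts in siControl and 107.4 and 133.8 in siTARG1 and fell by 1.31 (DESeq2 adjusted p = 3.08e-08). LAPTM4B, which recruits SLC7A5 and SLC3A2 to the lysosome, fell by 0.29 (DESeq2 adjusted p = 0.0132). The lactate carriers that travel with the glycoprotein BSG moved apart, with SLC16A1 higher by 0.50 and SLC16A3 lower by 0.71 on the log2 scale, both past the threshold.

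The genes with patterns most like SLC7A5 were ranked by Pearson's r of log2(normalized count + 1) over the 8 libraries, each value centred on the mean of its experiment, among 6431 genes with a mean of at least 100. HAUS1 (0.99), OAS2 (0.98), UBA1 (0.97), PIEZO1 (0.96) and OASL (0.96) headed the list. The correlation takes no account of the size of a change, and UBA1 moved by -0.16 in RACK1-Mut and 0.10 in siTARG1 (log2). HAUS1 had a mean of 100.1, at the filter. DESeq2 called none of these 5 genes in the RACK1 comparison, and PIEZO1 alone in the siRNA comparison. SLC3A2 was the closest member, at r = 0.90 and rank 48, followed by SLC38A1 at 0.63 and SLC1A5 at 0.40. The points share libraries and 2 experiments, so these values describe 8 libraries and carry no p-value. Ranked by Spearman's correlation instead, the first 5 genes held 0 of these 5. Of the 5, UBA1 alone has a mean of at least 500, and it ranked first among genes above that level.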

How the data were processed

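Groups and replicate numbers came from the sample titles. The authors aligned footprints with TopHat2 2.1.1 after removing rRNA reads with Bowtie 1.1.2 (per the labels), allowing up to 64 hits per read. The deposited counts, made by the authors with Plastid, cover the exons, 5′ UTR, coding sequence and 3′ UTR of each region on hg19 (GRCh37) with GENCODE 24. Per the file headers, reads of 26 to 36 nt were counted at an offset of 14 nt from their 5′ end. The methods give 12 nt from the 3′ end instead, a difference that was not resolved and bears on the 5′ UTR shares. Whether identical molecular identifiers were collapsed is not stated. The deposited RPKM values were used only to find the alignments per library. Symbols from GENCODE 44 were found for 19612 regions (97.3%), and 165 of 171 list genes matched. Unmatched genes were not analysed here.

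DESeq2 1.42.0 in R 4.3.3, the test of the study's methods, was fitted to the coding counts of the 4 libraries of each comparison, for genes with at least 10 counts, and calls were made under a Benjamini-Hochberg adjusted p of 0.05. SE and 95% intervals come from that fit. Alternatives were edgeR 4.0.16 (quasi-likelihood test, TMM), TMM factors in DESeq2, other count filters, exon counts, a replicate term, all 8 libraries together, removal of the most abundant genes and each library left out. The fits were tested on simulated data. The members and lists were chosen with earlier results of these data known. Named list genes are up to 4 called genes per list with a mean of at least 50 normalized counts and the largest changes. The ratio of SLC7A5 to SLC3A2 and the other within-library ratios were added after seeing the data. Upstream ATGs were searched on the mRNA strand in 1 transcript per gene, whose 5′ UTR differs in length from that of the files for some members.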

Additional observations from a re-analysis of the deposited data

How the results depend on the processing

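Of 143 member fold changes under another setting, 141 kept their direction and call. SLC7A1 in siTARG1 passed under edgeR, and SLC1A4 in RACK1-Mut, at -0.03, turned to 0.0061 with exon counts. SLC7A5 in RACK1-Mut, and SLC7A5, SLC3A2 and SLC38A1 in siTARG1, stayed past the threshold under every other setting with a call. These settings refit the libraries whose coding counts chose the set, so this describes the processing and lends the calls no support. Genes called went from 10 to 30 under edgeR, all 10 included, and to 6 with the replicate block, 5 of them shared. In the siRNA comparison they went from 1974 to 3470 under edgeR, all 1974 included, and to 1125 with the replicate block, 1120 of them shared. Whether the numbers pair the libraries is not stated. Same-numbered libraries deviated with correlations of 0.083 and 0.031, which cannot settle it with 2 libraries per group. In the siRNA experiment the coding counts were 4207939 and 4207861 in the number 1 libraries and 3100947 and 3145173 in the number 2 libraries. The block changed no call reported for the members. With a library left out, which leaves 1 in its group and gives no call, 13 of 72 member values moved by more than 1 SE. The median of the other transporters in siTARG1, 0.29, was 0.0457 with at least 10 counts required in every library. With 2 libraries per group, changes in SLC1A4 and SLC43A1 are limited by depth. The causes of these shifts were not tested.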

Other observations

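SLC7A8 (LAT2), another light chain of SLC3A2 that exchanges neutral amino acids, separated the experiments and was named after its values were seen. Its level was 60.7 and 62.3 in RACK1-WT, 60.9 and 55.2 in RACK1-Mut, 1.48 and 2.61 in siControl, and 2.51 and 4.35 in siTARG1. The mean in RACK1-WT was 30.1 times that in siControl, which rests on 10 and 13 raw counts in the siControl libraries against 645 and 618. Of 32 transporters with at least 80 counts over the 8 libraries, 6 differed by more than 4-fold between RACK1-WT and siControl. The groups come from separate experiments with different OVCAR3 derivatives, vectors and treatments, which cannot be told apart.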
